A study of Mus musculus with 18 samples.

Results

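Genes that take up, bind, convert, make, break down or respond to retinoids, the vitamin A compounds, were described in MEFs, mouse embryonic fibroblasts of a wild-type cell line, across the 6 groups of an RNA-seq experiment on culture serum. The 9 members, chosen by gene symbol from the 55487 genes of the count table, were Stra6, Crabp1, Crabp2, Dhrs3, Aldh1a1, Aldh1a2, Cyp26b1, Rarb and Rarres1. MEFs were cultured either in Scm, complete medium with a fetal bovine serum under which cells are sensitive to ferroptosis, or in Rcm, complete medium with another that makes them resistant. In the other groups the medium was exchanged from Scm to Rcm (S-Rcm) or from Rcm to Scm (R-Scm), and RNA was taken 12 h or 24 h later. Each group had 3 libraries. No group had its medium exchanged for medium with the same serum. In comparisons of exchanged with unexchanged groups, the change of serum can therefore not be told apart from fresh medium or from time. The exchange experiment addressed how the resistance-conferring serum acts on the cells through their transcripts. The members were picked with their values in all 6 groups already known, so that their levels, changes and calls are given as a description, no p-value is given for them and nothing is supported with them.

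Retinol enters cells through carriers such as STRA6 and is oxidized reversibly to retinal, which DHRS3 reduces back to retinol. Retinal dehydrogenases of the ALDH1A family then make retinoic acid, CRABP1 and CRABP2 bind it in the cytoplasm, and enzymes of the CYP26 family break it down. Retinoic acid acts through the receptors RARα, RARβ and RARγ, which pair with RXR on DNA, often on direct repeats of a hexamer. Several genes of the pathway, among them Rarb, Stra6, Crabp2, Dhrs3 and Cyp26b1, are themselves known to respond to retinoic acid.

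The members lay on 6 chromosomes of GRCm38 (GENCODE M21 annotation). Stra6 (ENSMUSG00000032327) was at chr9:58063788-58153996, Crabp1 (ENSMUSG00000032291) at chr9:54764748-54773110 and Aldh1a2 (ENSMUSG00000013584) at chr9:71215789-71296243, all on the plus strand. Crabp2 (ENSMUSG00000004885) was at chr3:87948666-87953376 on the plus strand, and Rarres1 (ENSMUSG00000049404) at chr3:67478972-67515523 on the minus strand. Dhrs3 (ENSMUSG00000066026) was at chr4:144892827-144928209 and Aldh1a1 (ENSMUSG00000053279) at chr19:20492715-20643465, both on the plus strand. Cyp26b1 (ENSMUSG00000063415) was at chr6:84571414-84593908 and Rarb (ENSMUSG00000017491) at chr14:16430839-16819156, both on the minus strand. Rarb shared 1793 exon bases with Top2b on the opposite strand, and since the use of strand in counting is not given in the sources used here, reads on Rarb and on Top2b could not be told apart there. Aldh1a1 had a stretch of 429 bases that was 92.8% identical to Aldh1a7, so that the counts of this pair are uncertain to the extent that reads were split between them.

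Promoter sequences of 300 bases, from 250 before to 50 after a start site, were matched by symbol in the RefSeq table (GRCm38.p6) for 8 members with 14 start sites. They were searched on both strands for 4 hexamers that occur in the binding sites of retinoic acid receptors, and for direct repeats of them with a spacer of 5 bases. Crabp2, the remaining member, had no entry in the table and was not searched. Any of the hexamers was found in 4 promoters of 4 members, while 43.7% of the 32851 promoters in the table held at least 1 of them. Of all promoters, 16.3% held AGGTCA, 13.7% held GGGTCA, 14% held AGTTCA and 10.4% held GGTTCA. The direct repeat was in 1 promoter of a member, that of Rarb, and in 32 of the 32851, or 0.0974%. The 4 promoters are shown from 5′ to 3′ on the gene's strand, because they hold the hexamers of the member genes. Capitals mark the direct repeat in Rarb (chr14:16575427-16575726, minus strand), which lay between positions -53 and -37 from the start site, while another hexamer of the 3 in that promoter, GGGTCA, stands upstream of it in lower case. In the other promoters capitals mark the single hexamer. It was GGGTCA on the opposite strand at -82 to -77 in Rarres1 (chr3:67515474-67515773, minus strand), GGGTCA on the opposite strand at -49 to -44 in Aldh1a1 (chr19:20601718-20602017, plus strand) and AGTTCA at 16 to 21 in Stra6 (chr9:58133825-58134124, plus strand). A hexamer on the opposite strand reads TGACCC in the line shown. A match of these letters is a description and does not show that a receptor binds.
Rarb: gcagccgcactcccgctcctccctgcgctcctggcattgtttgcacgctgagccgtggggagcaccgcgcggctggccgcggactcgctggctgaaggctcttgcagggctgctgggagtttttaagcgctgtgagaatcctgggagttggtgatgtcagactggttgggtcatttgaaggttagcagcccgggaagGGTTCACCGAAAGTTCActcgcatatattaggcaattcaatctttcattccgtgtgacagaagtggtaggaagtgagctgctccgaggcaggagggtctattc
Rarres1: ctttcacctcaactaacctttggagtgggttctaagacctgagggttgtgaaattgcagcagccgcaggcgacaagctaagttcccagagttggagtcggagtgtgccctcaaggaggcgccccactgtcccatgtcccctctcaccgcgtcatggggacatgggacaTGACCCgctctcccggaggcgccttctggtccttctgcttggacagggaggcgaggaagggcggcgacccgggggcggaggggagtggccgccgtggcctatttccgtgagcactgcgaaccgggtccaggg
Aldh1a1: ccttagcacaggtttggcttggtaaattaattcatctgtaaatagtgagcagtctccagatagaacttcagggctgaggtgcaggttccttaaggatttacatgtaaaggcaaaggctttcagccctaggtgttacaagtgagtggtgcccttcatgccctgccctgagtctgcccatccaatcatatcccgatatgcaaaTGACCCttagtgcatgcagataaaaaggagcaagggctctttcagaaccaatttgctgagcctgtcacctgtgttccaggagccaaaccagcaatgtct
Stra6: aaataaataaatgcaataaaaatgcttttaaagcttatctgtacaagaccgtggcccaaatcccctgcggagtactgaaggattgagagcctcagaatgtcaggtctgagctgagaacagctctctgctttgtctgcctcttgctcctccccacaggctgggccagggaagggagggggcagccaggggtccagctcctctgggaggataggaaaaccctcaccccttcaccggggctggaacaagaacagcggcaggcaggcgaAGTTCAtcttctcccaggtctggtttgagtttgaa

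Total counts were 14534906 to 20313715 per library. Replicate pairs were further apart than counting noise, at a chi-square of 9.33 to 41.1 for each degree of freedom. The labels do not say whether the libraries of a group came from separate cultures, so that p-values measure the spread between these libraries, which may be technical. The labels give no batch or date. Of 10 fibroblast markers, 9 passed the filter on low counts, and their summed level was 8073 to 12589 CPM (counts scaled to library size, with TMM factors), although Lum had 3 counts or fewer in every library. Summed markers of epithelial cells reached at most 1.47 CPM, of endothelial cells 3.25, of immune cells 5.21, of muscle 0.351 and of adipocytes 2.46. Higher sums were found for the mesothelial markers, at 23.3 to 47.8 CPM with Msln at 14.2 to 36.5. The neural markers summed to 61.5 to 112 CPM, with Sox2 at 37.4 to 77.4. The source of these transcripts was not tested. Within the R-Scm 24 h group, the library of replicate 1 moved counts of differentially expressed genes (DEGs, defined with the comparisons) the most. Against Rcm, 501 DEGs were found without it and 58 with it.

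Crabp1 dominated the members in level. Per kb of exon, the measure used to compare genes, its mean over the 18 libraries was 1623 CPM per kb, above 99.9% of the genes tested. Dhrs3 stood near the middle of all genes tested, with 5.87 CPM per kb against a median of 5.78. Below it came Cyp26b1 with 1.98, Crabp2 with 1.84, Aldh1a1 with 1.55 and Rarres1 with 1.40 CPM per kb, and the ranges of these 4 over the libraries overlapped. Stra6 had 0.361 CPM per kb, above 9.97% of the genes tested. Rarb had 0.00867 CPM per kb, and Aldh1a2 was not detected. A low level here can come from few cells with the transcript or from little RNA per cell, which bulk libraries cannot tell apart.

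**Figure D1:**
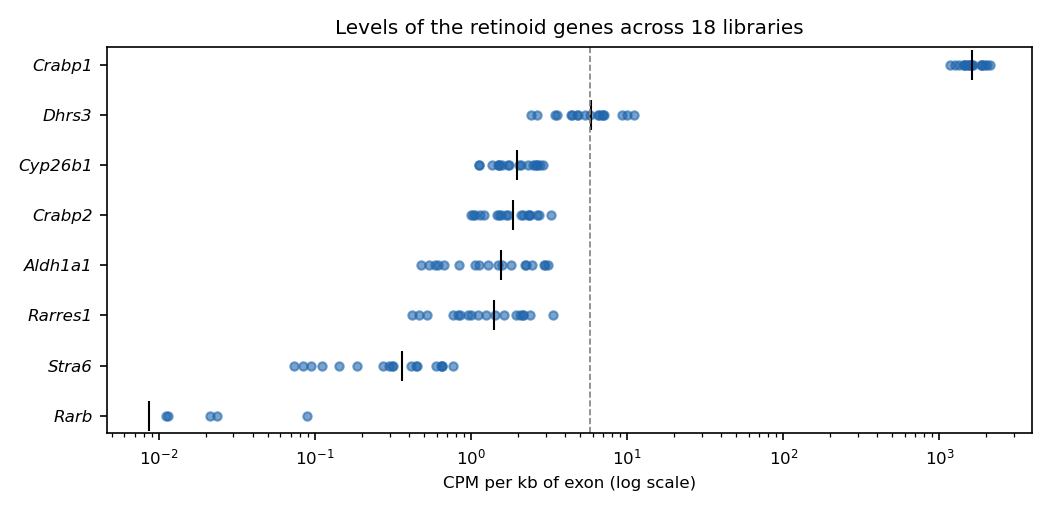
Level of each detected retinoid gene in CPM per kb of exon on a log axis, with a point for each of the 18 libraries, a black bar at the mean and a dashed line at the median of all genes tested. Crabp1 lies far above the rest and Rarb below them; libraries with 0 counts of Rarb cannot be drawn on the log axis but are in its mean.

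Of the 9 members, 7 passed the filter on low counts and 2, Rarb and Aldh1a2, did not. The members that passed had between 7 and 31649 counts per library. Their values follow in the order of their roles, with libraries listed as replicates 1, 2 and 3.

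Stra6, the membrane receptor through which retinol bound to its plasma carrier enters cells, was higher in Rcm than in Scm. It measured 0.642, 0.485 and 0.550 CPM in Scm and 3.80, 4.46 and 3.81 CPM in Rcm. Values in S-Rcm were 2.63, 3.75 and 2.40 CPM at 12 h and 1.81, 3.46 and 2.59 CPM at 24 h. In R-Scm, Stra6 measured 1.59, 1.08 and 0.429 CPM at 12 h and 0.825, 1.83 and 1.73 CPM at 24 h. Every library of Rcm was thus above every library of the other 5 groups, and every library of S-Rcm was above those of Scm. In R-Scm at 12 h, replicate 3 lay below all of Scm while the other two lay above. Ordered by mean, the groups ran from Rcm (4.02 ± 0.376 CPM, SD, n = 3) through S-Rcm 12 h (2.93 ± 0.725), S-Rcm 24 h (2.62 ± 0.829), R-Scm 24 h (1.46 ± 0.555) and R-Scm 12 h (1.03 ± 0.58) to Scm (0.559 ± 0.0787). In that order Rcm and S-Rcm 12 h were neighbours without overlap, and all other neighbours overlapped. These levels rest on 7 to 75 counts per library.

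Crabp1, a cytoplasmic protein that binds retinoic acid, was the most abundant member and the one that varied least. It measured 1253, 1487 and 1324 CPM in Scm and 1145, 1269 and 1608 CPM in Rcm. After the exchange to Rcm it was 1512, 1172 and 1563 CPM at 12 h and 1220, 1505 and 1689 CPM at 24 h. In R-Scm the values were 1295, 1075 and 935 CPM at 12 h and 1143, 1006 and 1224 CPM at 24 h. All neighbours in the order of the group means overlapped, from S-Rcm 24 h (1471 ± 236 CPM) down to R-Scm 12 h (1102 ± 182).

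Crabp2, the paralog that delivers retinoic acid to the nucleus, was far less abundant. It measured 3.16, 2.29 and 2.75 CPM in Scm and 2.06, 2.20 and 3.05 CPM in Rcm. S-Rcm had 3.50, 3.59 and 4.27 CPM at 12 h and 1.93, 2.85 and 3.10 CPM at 24 h. R-Scm had 1.59, 1.39 and 1.35 CPM at 12 h and 2.003, 1.51 and 1.33 CPM at 24 h. The libraries of S-Rcm 12 h were above those of all other groups, and the 6 libraries of R-Scm were below those of the other groups except for S-Rcm 24 h replicate 1, which was lower than R-Scm 24 h replicate 1. Scm, S-Rcm 24 h and Rcm overlapped in the middle of the order.

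Dhrs3, which reduces retinal to retinol and so limits the supply for retinoic acid, followed a similar order. It measured 13.9, 17.0 and 15.6 CPM in Scm and 20.8, 19.4 and 20.3 CPM in Rcm. S-Rcm had 32.1, 29.1 and 27.2 CPM at 12 h and 14.2, 18.9 and 20.1 CPM at 24 h. R-Scm had 10.4, 10.03 and 7.11 CPM at 12 h and 7.72, 12.8 and 12.9 CPM at 24 h. S-Rcm 12 h stood above all other groups without overlap, and both R-Scm groups stood below all others. By mean the order was S-Rcm 12 h (29.5 ± 2.45 CPM), Rcm (20.2 ± 0.745), S-Rcm 24 h (17.7 ± 3.12), Scm (15.5 ± 1.57), R-Scm 24 h (11.1 ± 2.96) and R-Scm 12 h (9.18 ± 1.80). Rcm overlapped with S-Rcm 24 h, S-Rcm 24 h with Scm, and R-Scm 24 h with R-Scm 12 h.

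Aldh1a1, a retinal dehydrogenase that makes retinoic acid, split the groups by the medium in which the cells had begun. It measured 2.89, 3.33 and 3.02 CPM in Scm and 10.9, 14.6 and 12.1 CPM in Rcm. S-Rcm had 4.11, 2.35 and 2.63 CPM at 12 h and 5.54, 6.37 and 5.19 CPM at 24 h. R-Scm had 7.39, 7.82 and 11.04 CPM at 12 h and 8.84, 15.4 and 14.4 CPM at 24 h. All 9 libraries of cells that began in Rcm were above all 9 libraries of cells that began in Scm. R-Scm 24 h (12.9 ± 3.54 CPM) and Rcm (12.5 ± 1.93) overlapped at the top, as did Rcm and R-Scm 12 h (8.75 ± 1.99). At the bottom Scm (3.08 ± 0.225) overlapped with S-Rcm 12 h (3.03 ± 0.942), and S-Rcm 24 h (5.70 ± 0.606) stood apart from both. Aldh1a2, another enzyme for the same step, had 0 counts in all 18 libraries, which allows up to 3 counts or 0.148 to 0.206 CPM per library by counting error alone.

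Cyp26b1, which oxidizes retinoic acid to less active products, was higher at 12 h after either exchange than in both unexchanged groups. It measured 7.33, 6.03 and 5.98 CPM in Scm and 9.42, 8.05 and 7.98 CPM in Rcm. S-Rcm had 14.8, 14.2 and 14.2 CPM at 12 h and 9.28, 8.44 and 10.8 CPM at 24 h. R-Scm had 13.6, 15.4 and 11.2 CPM at 12 h and 8.07, 12.3 and 13.3 CPM at 24 h. All 6 libraries taken at 12 h were above all 6 of Scm and Rcm. Scm was below every other group without overlap, while S-Rcm 24 h (9.51 ± 1.21 CPM), R-Scm 24 h (11.2 ± 2.78) and Rcm (8.48 ± 0.811) overlapped.

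Rarb, the gene of the receptor RARβ and a common readout of retinoic acid, was near the limit of detection. It had 2, 7 and 0 counts in Rcm, 0, 2 and 1 at 12 h of S-Rcm, and 1, 0 and 0 at 24 h. There were 0 counts in the 9 libraries of Scm and R-Scm. Of the 13 counts in all, 9 were in Rcm, and 1 library of Rcm was above 3 counts, so that no fold change is given. Top2b, which shares exon bases with it, had 51277 counts in all.

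Rarres1, a membrane protein named for its response to retinoids, had its highest group means at 12 h after each exchange. It measured 0.695, 1.46 and 0.550 CPM in Scm and 1.12, 1.26 and 1.02 CPM in Rcm. S-Rcm had 2.57, 3.14 and 2.17 CPM at 12 h and 1.08, 0.615 and 1.33 CPM at 24 h. R-Scm had 2.85, 2.73 and 4.41 CPM at 12 h and 2.83, 1.64 and 1.89 CPM at 24 h. The 6 libraries taken at 12 h were above all 9 libraries of Scm, Rcm and S-Rcm 24 h, and so were the 3 of R-Scm 24 h. By mean the order was R-Scm 12 h (3.33 ± 0.942 CPM), S-Rcm 12 h (2.63 ± 0.488), R-Scm 24 h (2.12 ± 0.626), Rcm (1.13 ± 0.125), S-Rcm 24 h (1.01 ± 0.363) and Scm (0.900 ± 0.487), with overlap between all neighbours other than R-Scm 24 h and Rcm. Counts per library were 8 to 72.

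**Figure D2:**
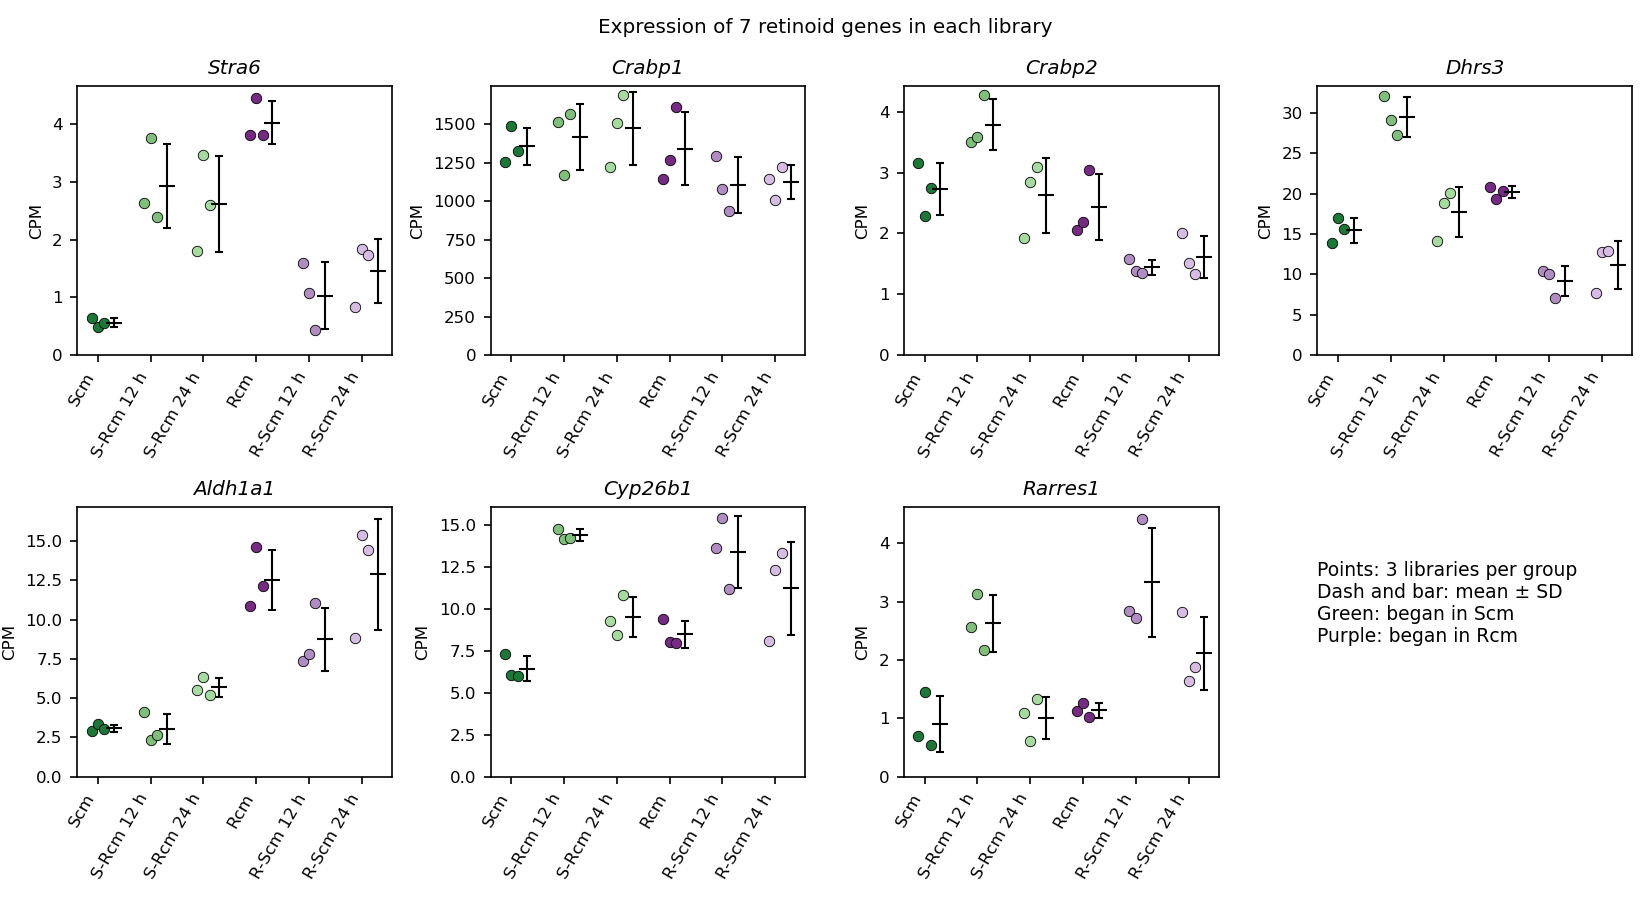
Level in CPM on linear axes that start at 0 for the 7 retinoid genes that passed the filter, with a point for each library and the mean ± SD of 3 libraries beside it; green groups began in Scm and purple groups in Rcm. Stra6 separates Rcm from Scm, Aldh1a1 separates all purple from all green groups, and Cyp26b1 and Rarres1 are higher at 12 h than in the unexchanged group of either colour.

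The groups were compared in edgeR's quasi-likelihood model of all 18 libraries, in which DEGs were genes past 0.58 on the log2 scale in either direction whose p, adjusted over the 15381 genes tested, was under 0.05. The comparisons with Rcm share its 3 libraries and those with Scm share theirs, so that they are not independent of each other. Counts of members called are given beside the share of all genes called, and nothing is read from the difference, since these contrasts were known when the members were chosen.

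When Rcm was set against Scm, Stra6 and Aldh1a1 were the members that differed most, both higher in Rcm. Stra6 was 7.06-fold higher, a log2 fold change of 2.82 (SE 0.41), and Aldh1a1 was 4.07-fold higher, at 2.03 (SE 0.24). Both were DEGs, 2 of the 7 members tested, where 2.3% of all genes tested were DEGs and 1.67% were DEGs with a higher level in Rcm. Dhrs3 at 0.38 (SE 0.19) and Cyp26b1 at 0.39 (SE 0.18) were higher in every library of Rcm than in any of Scm, without passing the DEG thresholds. Crabp1 (-0.015), Crabp2 (-0.16) and Rarres1 (0.34) overlapped between the groups. The libraries of 4 members were thus separate, all higher in Rcm, while 23.9% of all genes tested were separate in either direction and 12.8% were higher. The median log2 fold change was 0.38 over the 7 members and 0.012 over all genes tested. Beside these differences, the summed level of the mesothelial markers, of which Upk3b, Wt1 and Lrrn4 had 3 counts or fewer in every library and 2 of 6 were tested, was 24.5 to 29.9 CPM in Scm and 41.8 to 47.8 CPM in Rcm. The neural markers, of which 3 of 4 were tested and Elavl3 had 3 counts or fewer, summed to 101 to 109 CPM in Scm and 61.5 to 76.3 CPM in Rcm. The fibroblast markers summed to 8578 to 8940 CPM in Scm and 10591 to 11373 in Rcm, and the adipocyte markers to 0.214 to 0.624 CPM in Scm and 1.02 to 2.46 in Rcm. Of the adipocyte markers, Adipoq, Plin1 and Lep had 3 counts or fewer in every library, and 1 of 4 was tested. The part of these marker transcripts in the result was not tested. Both calls, of Stra6 and of Aldh1a1, held in each fit that left out a library.

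At 12 h after the exchange from Scm to Rcm, 4 members were DEGs against Scm and all of them were higher. Stra6 was 5.15-fold higher (log2 fold change 2.36, SE 0.41), Rarres1 stood at 1.55 (SE 0.36), Cyp26b1 at 1.16 (SE 0.18) and Dhrs3 at 0.93 (SE 0.19). Of all genes tested, 0.858% were DEGs in this comparison, 0.598% with a higher level. Crabp2 was also higher in every library, at 0.47 (SE 0.23), which makes 5 members without overlap, all higher, beside 26.4% of all genes tested in either direction and 14.4% higher. Aldh1a1, which differed between Rcm and Scm, was at the level of Scm (-0.018, SE 0.26). The median was 0.93 for the members and 0.019 for all genes tested. The call of Cyp26b1 held when any 1 of the 6 libraries was left out. That of Dhrs3 was lost in each of these 6 fits although its log2 fold change stayed at 0.86 to 1.003, that of Stra6 was lost without Scm replicate 1, 2 or 3 (2.14 to 2.49 over the 6 fits), and that of Rarres1 was lost in every fit except the one without Scm replicate 2 (1.31 to 2.05). The adipocyte markers, of which Adipoq, Plin1 and Lep had 3 counts or fewer and 1 of 4 was tested, summed to 0.728 to 1.04 CPM here and 0.214 to 0.624 CPM in Scm. The endothelial markers, of which 2 of 4 were tested and each had at most 30 counts in any library, summed to 0.819 to 0.953 CPM here and 0.139 to 0.642 CPM in Scm. The part of both was not tested.

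At 24 h after the exchange to Rcm, Stra6 was the single member called. It was 4.62-fold higher than in Scm (log2 fold change 2.21, SE 0.41), 1 of 7 where 0.338% of all genes tested were DEGs and 0.221% were DEGs with a higher level. Aldh1a1 stood at 0.89 (SE 0.25) and Cyp26b1 at 0.56 (SE 0.18). Both of these were higher in every library without being called, so that 3 members did not overlap, beside 19.5% of all genes tested in either direction and 10.6% higher. Dhrs3 (0.19), Rarres1 (0.17), Crabp1 (0.12) and Crabp2 (-0.061) overlapped with Scm. The members' median was 0.19 and that of all genes 0.0061. The call of Stra6 remained in 1 of the 6 fits that left out a library, the one without S-Rcm 24 h replicate 1, and its log2 fold change lay between 1.95 and 2.41 in the 6. The neural markers summed to 71.1 to 82.9 CPM here, below Scm, the fibroblast markers to 9189 to 12463 CPM and the adipocyte markers to 1.01 to 1.33 CPM, both above Scm. Muscle markers, of which 0 of 4 were tested, summed to 0.168 to 0.316 CPM here and to at most 0.16 CPM in Scm. The part of these marker transcripts was not tested.

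At 12 h after the exchange from Rcm to Scm, 4 members were DEGs against Rcm, 2 lower and 2 higher. Stra6 was 3.84-fold lower (log2 fold change -1.94, SE 0.37) and Dhrs3 2.19-fold lower (-1.13, SE 0.19). Rarres1 was higher, at 1.55 (SE 0.35), and so was Cyp26b1, at 0.66 (SE 0.18). In this comparison 2.74% of all genes tested were DEGs, 1.22% lower and 1.51% higher. Crabp2, at -0.76 (SE 0.24), was lower in every library without being called, which makes 5 members without overlap, 3 lower and 2 higher, beside 23.4% of all genes tested, with 11.7% in each direction. Aldh1a1 (-0.52, SE 0.23) and Crabp1 (-0.28, SE 0.16) overlapped with Rcm. The median was -0.52 for the members and -0.0077 for all genes tested. Dhrs3 and Stra6 stayed DEGs when any 1 library was left out, though Stra6 was not called in a model of the 2 groups alone (its log2 fold changes outside the leave-out fits were -1.95 to -1.93). The call of Rarres1 was lost without Rcm replicate 1, Rcm replicate 3 or R-Scm 12 h replicate 3 (1.30 to 1.68 over the 6 fits), and that of Cyp26b1 was kept in 1 of these fits, the one without R-Scm 12 h replicate 3 (0.55 to 0.78). The summed fibroblast markers were 10591 to 11373 CPM in Rcm and 8151 to 9498 in R-Scm 12 h, the mesothelial markers 25.0 to 30.4 CPM in R-Scm 12 h and the neural markers 82.2 to 95.2, each apart from the Rcm values given above. Immune markers, with 1 of 4 tested and Ptprc and Adgre1 at 3 counts or fewer, summed to 2.34 to 3.39 CPM in Rcm and 3.56 to 5.21 in R-Scm 12 h. Their part in the result was not tested.

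At 24 h after the exchange to Scm, 0 of 7 members were DEGs against Rcm in edgeR, where 0.377% of all genes tested were called. DESeq2 called 2, Stra6 and Dhrs3, beside 1.07% of all genes. Stra6 stood at -1.45 (SE 0.36), Dhrs3 at -0.86 (SE 0.19) and Crabp2 at -0.60 (SE 0.24), each lower in every library than in Rcm. Rarres1 was higher in every library, at 0.90 (SE 0.35), so that 4 members did not overlap beside 11.2% of all genes tested (5.64% lower and 5.57% higher). Cyp26b1 (0.41, SE 0.18), Aldh1a1 (0.040, SE 0.22) and Crabp1 (-0.25, SE 0.16) overlapped. The members' median was -0.25 and that of all genes -0.0013. Without R-Scm 24 h replicate 1, the lowest of its group for Stra6, Dhrs3, Aldh1a1 and Cyp26b1, 2 members were called. These were Dhrs3 at -0.65 and Cyp26b1 at 0.60, while Stra6 stood at -1.17. Over all genes, DEGs numbered 501 in that fit and 58 with this library included. The mesothelial markers summed to 23.3 to 40.7 CPM in R-Scm 24 h, below every library of Rcm, and their part was not tested.

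**Figure D3:**
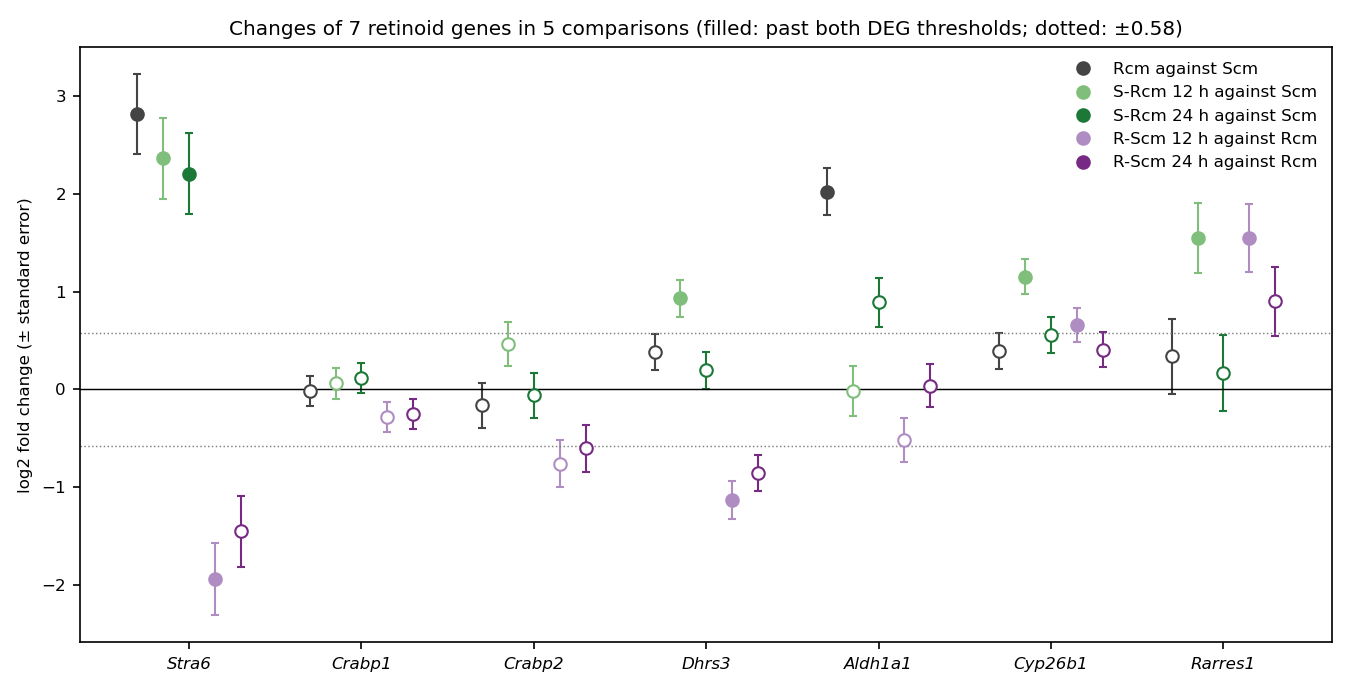
Log2 fold change with its standard error for the 7 retinoid genes in the 5 comparisons, filled where both DEG thresholds were passed, with dotted lines at 0.58 and -0.58. Stra6 is filled in 4 comparisons, positive in 3 and negative in 1, while Cyp26b1 and Rarres1 are filled and positive at 12 h after both exchanges.

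Set against the medium they were moved to, Stra6 and Aldh1a1 differed in how far they had come. On the log2 CPM scale, where 0% is the mean of Scm and 100% that of Rcm, Stra6 was at 82.2% after 12 h of S-Rcm and 75.6% after 24 h. In R-Scm it was at 23.8% at 12 h and 44.3% at 24 h. In the means of all 4 exchange groups Stra6 was nearer to the new medium than to the old one, but in R-Scm 24 h this rested on replicate 1, without which Stra6 was at 57.2%, nearer to Rcm. Leaving out any other library of the 3 groups, an alternative chosen after seeing the data, kept it nearer to the new medium. Aldh1a1 was at -3.03% after 12 h of S-Rcm and 43.5% after 24 h. In R-Scm it was at 73.4% at 12 h and 100.4% at 24 h. Aldh1a1 was nearer to the old medium than to the new one in all 4 groups, also when any 1 library was left out (S-Rcm 24 h at 39.4% to 46.8%, R-Scm 12 h at 64.4% to 78.9%). The log2 distance between Scm and Rcm was 1.98 for it and 2.62 for Stra6. Dhrs3, Cyp26b1 and Rarres1 left the interval between both media. Dhrs3 in S-Rcm 12 h was above Rcm in every library (log2 fold change 0.55, SE 0.18), and Dhrs3 in R-Scm 12 h was below Scm in every library (-0.75, SE 0.19). Crabp2 did the same, with 0.63 (SE 0.23) for S-Rcm 12 h against Rcm and -0.92 (SE 0.24) for R-Scm 12 h against Scm. In these comparisons with the new medium 20.2% and 36.8% of all genes tested did not overlap. Between 12 h and 24 h of S-Rcm, 5 of the 7 members had separate libraries, beside 17.2% of all genes tested. Dhrs3 was lower at 24 h (-0.74, SE 0.19), as were Crabp2, Cyp26b1 and Rarres1, and Aldh1a1 was higher (0.91, SE 0.25). The neural markers were separate too, with 95.5 to 111.7 CPM at 12 h and the lower values given above at 24 h, as were the endothelial markers, which summed to 0.506 to 0.67 CPM at 24 h, and their part was not tested. Between 12 h and 24 h of R-Scm the libraries of all 7 overlapped, beside 15.2% of all genes tested that did not.

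**Figure D4:**
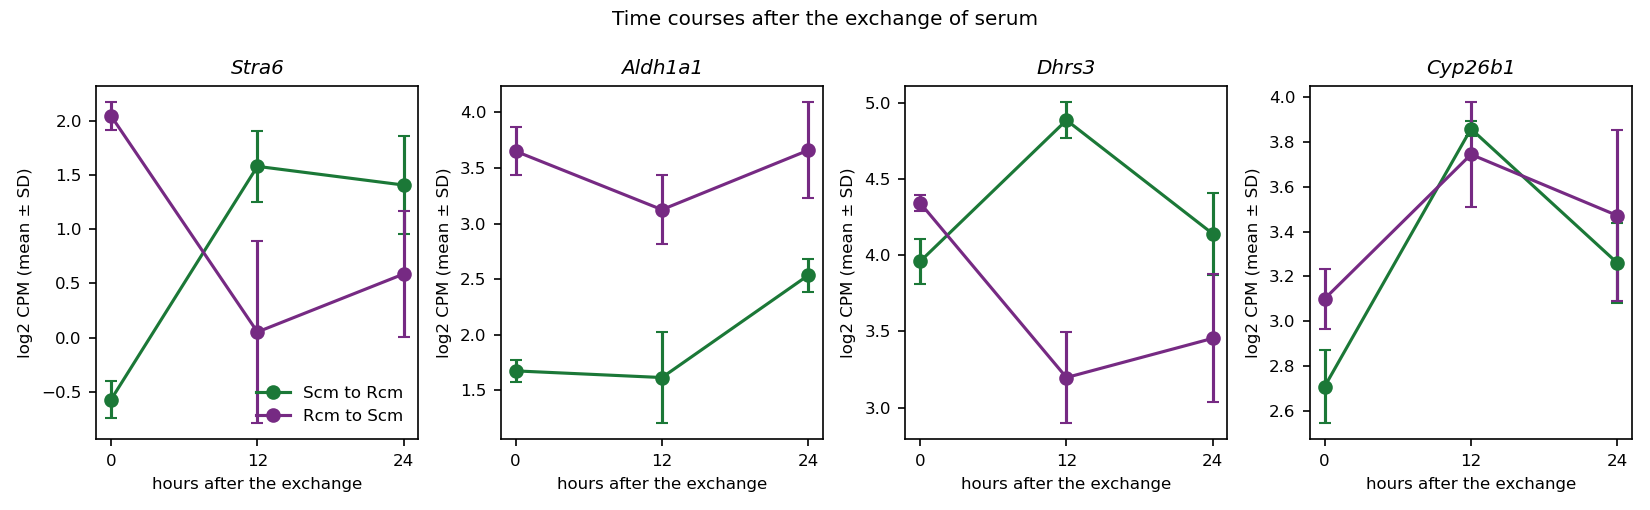
Log2 CPM (mean ± SD of 3 libraries) of Stra6, Aldh1a1, Dhrs3 and Cyp26b1 against hours after the exchange, with the unexchanged group of the starting medium at 0 h, green for Scm to Rcm and purple for Rcm to Scm. The lines of Stra6 and Dhrs3 cross, those of Aldh1a1 stay apart, and both lines of Cyp26b1 peak at 12 h.

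Other genes of the retinoid pathway, 55 in a list that excludes the members, were read from the same model with their adjusted p, and 34 of them were tested. This list too was chosen with earlier results of these data known, so that its p-values may not be independent of the choice. In R-Scm 12 h against Rcm 2 of the 34 were DEGs that fell and 0 were DEGs that rose. Of all genes tested, 2.74% were DEGs in this comparison, 1.22% lower and 1.51% higher. Rdh11, an enzyme that converts between retinal and retinol, fell from 111 ± 3.18 to 65.5 ± 1.75 CPM (log2 fold change -0.76, SE 0.12, adjusted p = 0.0013 in edgeR). Fabp5, a fatty acid binding protein that can also carry retinoic acid, fell from 257 ± 54.8 to 161 ± 21.8 CPM (-0.68, SE 0.17, adjusted p = 0.0275 in edgeR). Both were lower in 3 of 3 libraries than in any library of Rcm. The call of Rdh11 held in every alternative, and that of Fabp5 was lost when Rcm replicate 3 (-0.49, adjusted p = 0.135), R-Scm 12 h replicate 2 (-0.69, adjusted p = 0.0688) or R-Scm 12 h replicate 3 (-0.58, adjusted p = 0.144) was left out of the edgeR model, and in a model of the 2 groups alone (adjusted p = 0.101). The median of the 34 was -0.16, beside -0.0077 for all genes tested.

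In each of the other 4 comparisons 0 of the 34 were DEGs in edgeR. The share of DEGs over all genes tested was 2.3% in Rcm against Scm, 0.858% and 0.338% at 12 h and 24 h of S-Rcm, and 0.377% in R-Scm 24 h. At an unadjusted p under 0.05 there were 8 in Rcm against Scm, 7 and 5 at 12 h and 24 h of S-Rcm, and 4 in R-Scm 24 h. Of all genes tested, 16.2%, 14.3%, 8.11% and 10.3% were under that p in the same order. DESeq2 called 2 in Rcm against Scm (Rbp2 lower and Dhrs9 higher), 2 in the S-Rcm 12 h comparison (Rdh12 and Igfbp3, both higher) and 0 in both comparisons at 24 h. It called 3.31% of all genes in Rcm against Scm, 1.74% and 0.878% at 12 h and 24 h of S-Rcm, and 1.07% in R-Scm 24 h. These 4 genes were named after their values were seen. Rdh11 was higher in Rcm than in Scm at a log2 fold change of 0.46, below the limit of 0.58 (adjusted p = 0.0409 in edgeR). Medians of the 34 were 0.11 in Rcm against Scm, 0.018 and 0.071 at 12 h and 24 h of S-Rcm, and 0.067 in R-Scm 24 h.

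By role, the most abundant genes of the list were Fabp5 among those for uptake, binding and storage (208 CPM over the 18 libraries) and Rdh11 among those for conversion of retinol and retinal (89.3). Rarg, the gene of RARγ, led the receptors and coregulators with 245 CPM and a range of 138 to 298, and Lamb1, a laminin chain known to respond to retinoic acid, led the other response genes with 338 CPM and a range of 284 to 388. The 4 other genes of retinoic acid synthesis and breakdown, Aldh1a3, Aldh8a1, Cyp26a1 and Cyp26c1, had at most 10 counts in any library and were not tested. The highest of them was Aldh1a3 at a mean of 0.213 CPM. Of the enzymes for these steps, Aldh1a1 and Cyp26b1 were therefore the ones that could be followed at this depth. Whether the genes of the list ran a different course from 12 h to 24 h after the exchanges was tested as an interaction, and 0 of the 34 passed in edgeR or in DESeq2, with 2 at an unadjusted p under 0.05 in each. Of all 15381 genes tested, 0 passed this test in edgeR and 12 in DESeq2.

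**Figure D5:**
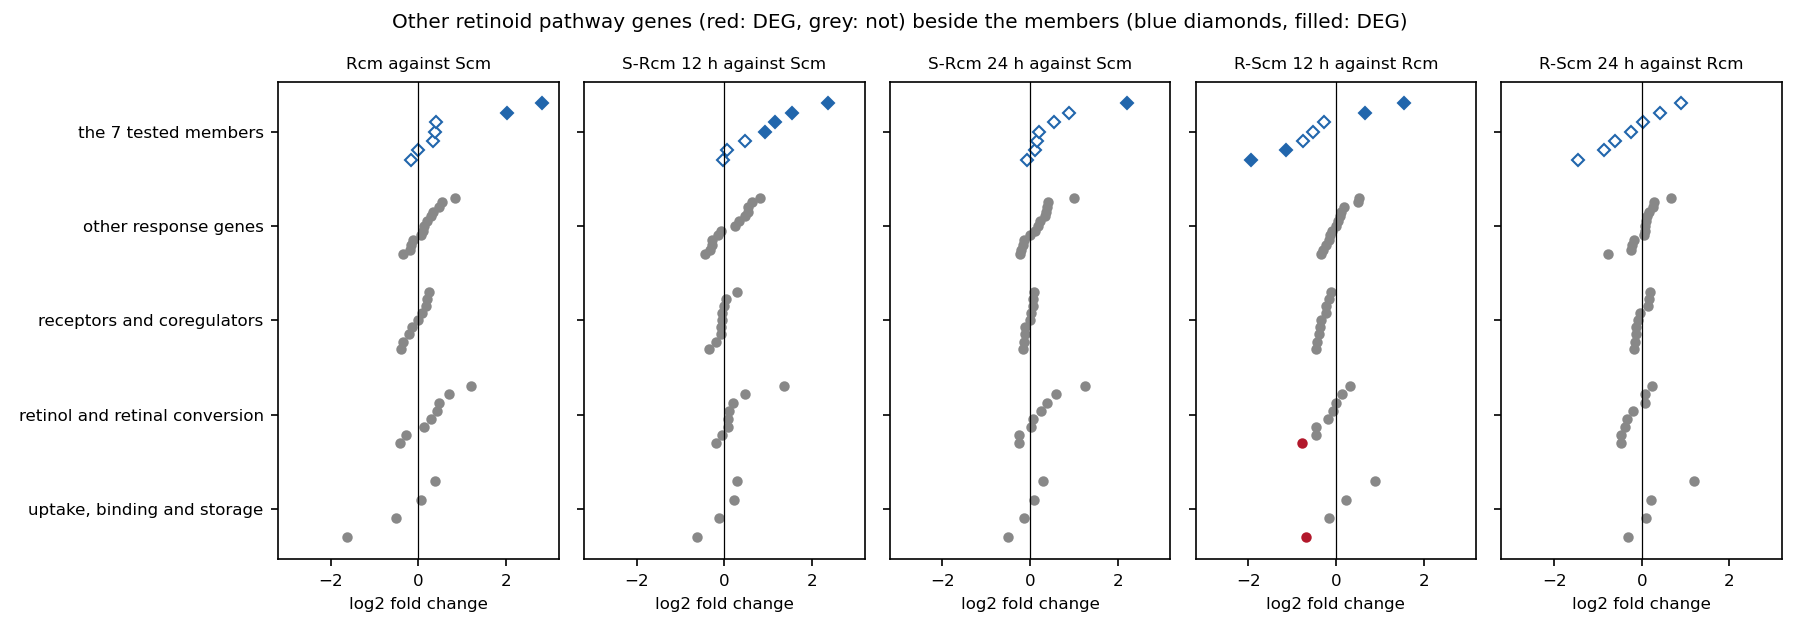
Log2 fold changes of the 34 other retinoid pathway genes tested, by role, with the 7 members as blue diamonds (filled for DEGs) in 5 comparisons; red points are DEGs and grey points are not. The 2 red points, Rdh11 and Fabp5, are both in R-Scm 12 h against Rcm and both negative.

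Similarity over the libraries was described with Pearson's r of log2 CPM over the 18 libraries, which share the 6 groups and hence are not independent points. Among the members r ran from -0.703 for Crabp2 and Aldh1a1 to 0.795 for Crabp2 and Dhrs3. Crabp1 with Crabp2 had 0.714, Cyp26b1 with Rarres1 0.694 and Stra6 with Dhrs3 0.663, while Stra6 with Aldh1a1 had 0.211. Over all genes tested, the 3 most like Stra6 were Pitpnc1 (r = 0.868), Angptl4 (0.854) and Gprc5b (0.841). Angptl4 had 8.26 ± 0.602 CPM in Scm, 29.0 ± 1.90 in Rcm, 33.1 ± 4.37 in S-Rcm 12 h and 14.9 ± 1.43 in R-Scm 12 h. The genes most like Aldh1a1 were Aldh1a7 (0.852), Rpl17-ps3 (0.831) and Isg20 (0.817). Aldh1a7, the near copy, had 4.82 ± 0.579 CPM in Scm and 14.7 ± 0.481 in Rcm. In S-Rcm it had 7.37 ± 0.863 CPM at 12 h and 10.8 ± 0.898 at 24 h. In R-Scm it had 9.76 ± 0.326 CPM at 12 h and 14.4 ± 1.39 at 24 h. Unlike Aldh1a1, Aldh1a7 did not split the groups by starting medium, since S-Rcm 24 h had a higher mean than R-Scm 12 h and their libraries overlapped. For Cyp26b1 they were Acsbg1 (0.857), Abhd1 (0.843) and Gm43848 (0.828), and for Rarres1 Lxn (0.857), Fas (0.834) and Gadd45b (0.832). Lxn had 144 ± 5.40 CPM in Scm, 150 ± 16.0 in Rcm, 193 ± 6.06 in S-Rcm 12 h and 332 ± 51.4 in R-Scm 12 h. Dhrs3 was most like Rcor2 (0.926), Aifm2 (0.902) and Tspan11 (0.876), and Crabp2 most like Rcor2 (0.883), Sfxn5 (0.881) and Elmod3 (0.876). For Crabp1, Gchfr (0.936) and Ppp6r1 (0.927) were among the most like.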

How the data were processed

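RNA of MEFs was extracted with the RNeasy mini kit and sequenced in pairs of reads on a NovaSeq instrument, and the authors mapped the reads with HISAT2 to GRCm38. The deposited values are raw counts for 55487 genes. The counting tool, its use of strand and its treatment of reads with several alignments are not given in the sources used here. Columns were assigned to the 6 groups of 3 from the sample titles, and 0 columns were left out.

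The 15381 genes that passed edgeR's filterByExpr were scaled with TMM (factors 0.963 to 1.03) and fitted in 1 robust quasi-likelihood model of 18 libraries (12 residual degrees of freedom, common dispersion 0.0298), with Benjamini-Hochberg adjustment over all of them. The study's own DEGs came from DESeq2, which was run here as an alternative at the same limits. Levels are CPM with SD (n = 3), log2 CPM used a prior count of 2, and a count of 3 was taken as the floor. With 3 libraries against 3, exact permutation tests of single values reach p = 0.1 at the lowest, and none is given. The members, the pathway list, the marker lists and the rule for named genes were chosen with earlier results of these data known. The rule named the 9 members, each pathway gene that was a DEG, the most abundant pathway gene per role, and the 3 genes most correlated with each tested member, of which 1 is not reported here. Near copies were found with blastn (at least 90% identity over 100 bases). Scripts were tested on simulated data with 200 changed genes. Reads carry no molecular identifiers, so that floors cover counting error only. Alternatives were scaling, filters, the adjusted p alone, a replicate block, the 2 compared groups alone, DESeq2 and each library left out. Versions were R 4.3.3, edgeR 4.0.16, DESeq2 1.42.0, limma 3.58.1, Python 3.11.15, pandas 2.3.3, matplotlib 3.10.9 and blastn 2.17.0.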

Additional observations from a re-analysis of the deposited data

How the results depend on the processing

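The direction of each call of a member held in every alternative, while the number of calls depended on the setting. With the adjusted p alone, DEGs numbered 644 in place of 421 in R-Scm 12 h against Rcm, and 442 in place of 354 in Rcm against Scm. Pathway genes numbered 4 and 1 in these comparisons. With edgeR on the 2 compared groups alone, DEGs numbered 237 in R-Scm 12 h, 4 in R-Scm 24 h, 260 at 12 h of S-Rcm and 90 at 24 h. The same fits called 2 pathway genes in Rcm against Scm, 1 in R-Scm 12 h and 2 in S-Rcm 12 h, and 2 members in R-Scm 12 h. With DESeq2, DEGs numbered 165 in R-Scm 24 h, 268 at 12 h of S-Rcm and 135 at 24 h, against 58, 132 and 52, with 2 members in R-Scm 24 h and 2 pathway genes each in Rcm against Scm and in S-Rcm 12 h. Without a filter 1 member, Dhrs3, was called in R-Scm 24 h, beside 72 DEGs over all genes. A minimum of 10 counts in every library removed Stra6 and Rarres1 from the table. It left 1 member called in Rcm against Scm, 2 in R-Scm 12 h, 2 at 12 h of S-Rcm and 0 at 24 h. With that minimum, DEGs over all genes numbered 296, 390, 120 and 51 in the same order.

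With libraries left out in turn, DEGs ranged from 178 to 574 in Rcm against Scm, 275 to 420 in R-Scm 12 h, 14 to 501 in R-Scm 24 h, 36 to 76 at 12 h of S-Rcm and 6 to 28 at 24 h. The most were found without Rcm replicate 3 (574) and without R-Scm 24 h replicate 1 (501). Members called ranged in the same order from 2 to 2, 2 to 3, 0 to 2, 1 to 2 and 0 to 1, and pathway genes from 0 to 1, 1 to 2, 0 to 2, 0 to 0 and 0 to 0. Without Rcm replicate 3, Rbp2 was called in Rcm against Scm, and without R-Scm 24 h replicate 1, Adh7 and Plat were called in R-Scm 24 h. Without R-Scm 12 h replicate 2, Rara was called in R-Scm 12 h against Rcm (-0.60, adjusted p = 0.0218 in edgeR). The log2 fold change of Fabp5 in S-Rcm 12 h against Scm changed sign without S-Rcm 12 h replicate 2, to 0.0015, and ranged from -0.28 to that value over the 6 fits. Without Scm replicate 2, which held the most Rarres1 of its group, Rarres1 stood at 0.84 in Rcm against Scm and 2.05 in S-Rcm 12 h. The causes of these shifts were not tested.

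Same-numbered libraries, by the titles, did not all deviate together (correlations from -0.196 to 0.346 over the pairs). In R-Scm 24 h against Rcm all 3 were positive (0.0845, 0.159 and 0.346), with 1 under 0.1. The deposited columns of 3 groups carry the numbers 1, 3 and 4 where the titles have 1, 2 and 3. By the column numbers, looked at after seeing the data, correlations ran from -0.208 to 0.123. By the titles 8 of 18 libraries correlated best with their own number, so that the numbers were not taken as pairs. A replicate block in the model lost the calls of Cyp26b1 in R-Scm 12 h and Rarres1 in S-Rcm 12 h, as did the fit without a filter and that of 2 groups alone, and it added 1 pathway gene, Igfbp3, in S-Rcm 12 h. Under the block the log2 fold changes were 0.66 for Cyp26b1 and 1.55 for Rarres1, as without it. Low counts limit Stra6 and Rarres1 (7 to 75 and 8 to 72 per library), and Rarb and Aldh1a2 were too low to follow.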
